A study of Saccharomyces cerevisiae with 41 samples.

Results

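The 37 nucleotides of Saccharomyces cerevisiae 18S rRNA listed as chemically modified by the cell were examined in a table of reverse transcriptase drop-off rates, which covers all 1800 nucleotides. They were chosen by position from the known modification map and not by any measured value, though earlier results of these data were known at the time. The list holds 18 nucleotides with a 2'-O-methyl group on the ribose, 14 pseudouridines (U1191 among them, which is hypermodified) and 5 nucleotides with a modified base (C1280, G1575, C1773, A1781 and A1782). The 1761 unmodified nucleotides between the first and the last served as the reference, as a rule those of the same base as the member (472 A, 343 C, 453 G and 493 U).

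The cell adds these groups at different moments of ribosome assembly. Box C/D snoRNPs, whose methyltransferase is Nop1, methylate riboses, and box H/ACA snoRNPs isomerise uridine to pseudouridine, both mostly early in the nucleolus. Stand-alone enzymes modify bases: Kre33 acetylates cytidines C1280 and C1773, Bud23 with Trm112 methylates G1575, and Dim1 adds a pair of methyl groups to each of the neighbouring adenosines A1781 and A1782 in helix 45. U1191, in helix 31 near the decoding site, is first made a pseudouridine by the snR35 snoRNP, then methylated by Emg1 (Nep1), and last given an aminocarboxypropyl group by Tsr3, which acts in the cytoplasm. Reverse transcriptase halts at a base whose pairing edge carries a bulky group, can pause at a ribose methyl, and reads through a plain pseudouridine.

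Because the enzyme halts after copying the nucleotide on the 3' side of the block, each modified nucleotide was read at the next position, called here its stop (C1192 is the stop of U1191). The rate listed for the modified nucleotide itself is given where it adds something. The drop-off rate is a fraction from 0 to 1. Dimethyl sulfate (DMS), which methylates unpaired adenines and cytosines, was looked at for the offset, but at the next position only. The same count was not made at the listed position, and the offset is used as a convention here. The rate at the next position was above the control for 84.7% of unmodified adenines, 11.7% of guanines and 22.1% of uridines, but for only 32.4% of cytosines.

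The 41 samples form 17 groups, and the table gives 1 column, the authors' mean, for each group. All strains derive from BY4741 and carry a tag (HTP or TAP) on a bound protein through which the particles were immunoprecipitated, grown in glucose or in galactose and raffinose medium. Enp1, Ltv1, Rio2 (2 samples each) and Tsr1 (3) are the mid-early purifications, with 20S pre-rRNA. Nob1 (2), Rio1 (3) and 80S-like (2, fun12-TAP with FAP7 under a GAL promoter) also carry 20S by label and are grouped here as late, together with 80S (3, fun12-TAP, 18S rRNA). Rio1 was placed there from background knowledge. All 8 were treated with 1M7, a reagent that acylates the 2'-hydroxyl of flexible nucleotides. NAI, which acylates the same hydroxyl, was used on Tsr1 (2 samples), Rio1 (1 sample) and 80S (2 samples), and DMS on 80S (3 samples).

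Of the 5 untreated columns, 2 are 20S: the mid-early control (4 samples from the enp1, ltv1, tsr1 and rio2 strains) and the Tsr1 DMSO control (2 samples). The other 3 are 18S by label: the late control (3 samples, 1 from a nob1-TAP strain and 2 from fun12-TAP), the 80S DMSO control (2 samples) and the control of the DMS set (3 samples, fun12-TAP). Read depth is not given, so no counting interval can be set. Every SD below is a spread over columns, that is over purifications, and over both stages where n is 5 or 8. SEs and p-values are from limma, a linear model that combines the spread over columns at a stop with that of all stops fitted. They do not measure the spread between samples of a group. The mean rate lay between 0.0275 and 0.0311 in every column, treated or not. Whether rates were scaled within a column is not given, so a rate may be relative to the rest of its column. In the control of the DMS set and its treated partner, 36 and 34 of the last 50 nucleotides are listed at 0, beginning past A1766, which leaves C1773, A1781 and A1782 with no usable value there.

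The sequences around the nucleotides on which the results turn are given first, as RNA, 5′ to 3′, read from the deposited table in its own numbering. The modified base named on each line is in capitals, with 10 nucleotides on either side. Other listed modified nucleotides that fall in a window (U1181, U1187, C1773, U1269 and C1280) stay in lower case.
U1191 (hypermodified, window ending at 1201): uuaauuugacUcaacacgggg
A1781 and A1782 (dimethylated, 1771 to 1792): uccguaggugAAccugcggaag
C1639 (2'-O-methyl, 1629 to 1649): guacacaccgCccgucgcuag
A541 (2'-O-methyl, 531 to 551): cuuaacgaggAacaauuggag
A436 (2'-O-methyl, 426 to 446): gcaggcgcgcAaauuacccaa
U578 (2'-O-methyl, 568 to 588): gcagccgcggUaauuccagcu
A619 (2'-O-methyl, 609 to 629): uguugcaguuAaaaagcucgu
G1271 (2'-O-methyl, 1261 to 1281): guggguggugGugcauggccg
U632 (pseudouridine, 622 to 642): aagcucguagUugaacuuugg
The stop is the first lower-case letter after the capital, except for A1781, whose stop is the second capital.

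Read at the next position, dimethylated A1781 had the strongest stop among the 37. That position is A1782, itself dimethylated, and which of the pair halts the enzyme there was not tested. In untreated RNA the rate at A1782 was 0.977 in the mid-early control, 0.972 in Tsr1 DMSO, 0.950 in the late control and 0.964 in 80S DMSO. Both 20S columns and both 18S columns with a value were thus near 1. The stop of A1782, at C1783, read 0.156, 0.132, 0.129 and 0.138 in the same 4 columns. Reading from the 3' side, the enzyme meets A1782 before A1781. The rate listed at A1781 itself was 0.346 and 0.306 in 20S and 0.215 and 0.569 in 18S. On the 3' side, the rates at C1784 and U1785 were at most 0.00765 in those columns.

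The 1M7 and NAI columns held the A1782 rate between 0.879 (80S) and 0.981 (Nob1). At C1783 they ran from 0.0843 (80S) to 0.524 (Rio1 NAI), with Rio2 at 0.501 and Tsr1 NAI at 0.440. The 1M7 rates at C1783 were 0.234 ± 0.180 (SD, n = 4 columns) mid-early and 0.187 ± 0.0776 (SD, n = 4) late, groups that overlapped. The late against mid-early difference by limma was -0.03 (SE 0.19, adjusted p = 0.949) at A1782 and -0.17 (SE 0.46, adjusted p = 0.858) at C1783, both log2(rate + 0.01). The stop at A1782 was present in mid-early and late columns alike.

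**Figure D1:**
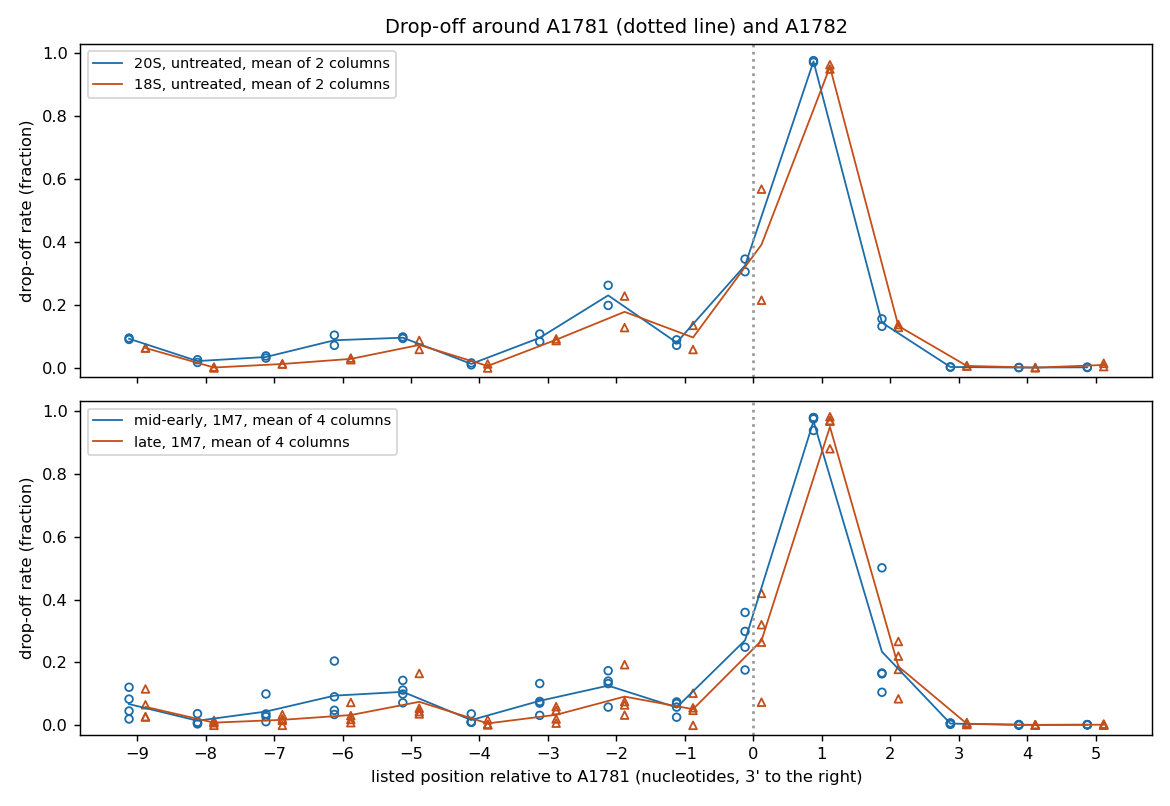
Drop-off rate (fraction) at each listed position from 9 nucleotides 5' to 5 nucleotides 3' of A1781 (dotted line), in untreated columns (upper panel) and 1M7 columns (lower panel). Points are columns and lines their means, with the control of the DMS set left out because it is listed at 0 here. The stop one position 3' of A1781 stands near 1 in 20S and 18S, mid-early and late, and the next position 3' is far lower.

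The other base-modified nucleotides gave no strong stop in untreated RNA. Acetylated C1280 was read at G1281, at 0.0291 and 0.0335 in the 20S columns and at 0.0171, 0.0200 and 0.0123 in the 18S columns. All 20S values lay above all 18S values, yet the difference of -0.65 (SE 0.19) had an adjusted p of 0.273 in limma. The unmodified cytosines' median at the stop was 0.0186. G1575, methylated at a ring position off the pairing edge, was read at A1576, at 0.0189 and 0.0172 in 20S and 0.0246, 0.0179 and 0.0259 in 18S, overlapping groups beside a guanine median of 0.0236. Acetylated C1773 was read at G1774, at 0.0316 and 0.0384 in 20S, 0.0128 and 0.0128 in the late and 80S DMSO controls, and has a zero in the DMS-set control. With reagent G1774 was highest in Rio2, at 0.0999, which is in the top 5% of stops of unmodified cytosines in that column, and it read 0.0543 in Tsr1 NAI.

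U1191 gave the stop that changed between stages. Untreated, the rate at C1192 was 0.219 in the mid-early control and 0.125 in Tsr1 DMSO. It was 0.787 in the late control, 0.712 in 80S DMSO and 0.833 in the control of the DMS set. The 20S columns were low and the 18S columns high with no overlap, at 0.172 ± 0.0670 (SD, n = 2) against 0.777 ± 0.0606 (SD, n = 3), a ratio of 4.52. No unmodified uridine had a stop above 0.127 on the mean of the 5 columns, and the median was 0.0173.

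With 1M7 the rate at C1192 was 0.0737 in Enp1, 0.0450 in Ltv1, 0.131 in Rio2 and 0.176 in Tsr1. It was 0.792 in Nob1, 0.681 in Rio1, 0.779 in 80S-like and 0.730 in 80S. Mid-early columns averaged 0.107 ± 0.0587 (SD, n = 4) and late columns 0.745 ± 0.0505 (SD, n = 4), without overlap. Limma gave 2.85 (SE 0.34, adjusted p = 0.00244) on the log2(rate + 0.01) scale. The remaining columns fell on the same sides: 0.119 in Tsr1 NAI, and 0.767 in Rio1 NAI, 0.769 in 80S NAI and 0.770 in 80S DMS. Nob1, Rio1, 80S-like and Rio1 NAI carry 20S RNA by label and lay with the 18S columns, so the stop was high in all late purifications whether the label read 20S or 18S.

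Leaving out any 1M7 column kept the call, with log2 differences of 2.54 to 3.12. Over the 15 columns of the 1M7 and NAI sets, with terms for treatment and set, the late columns were higher by 2.62 (SE 0.23, adjusted p = 4.98e-06). The untreated difference alone, 2.16 (SE 0.46) for 18S against 20S, had an adjusted p of 0.107 with 2 and 3 columns. That p ranged from 0.00632, without the control of the DMS set, to 0.484, without Tsr1 DMSO, and 3 of the 12 alternatives fell below 0.05.

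**Figure D2:**
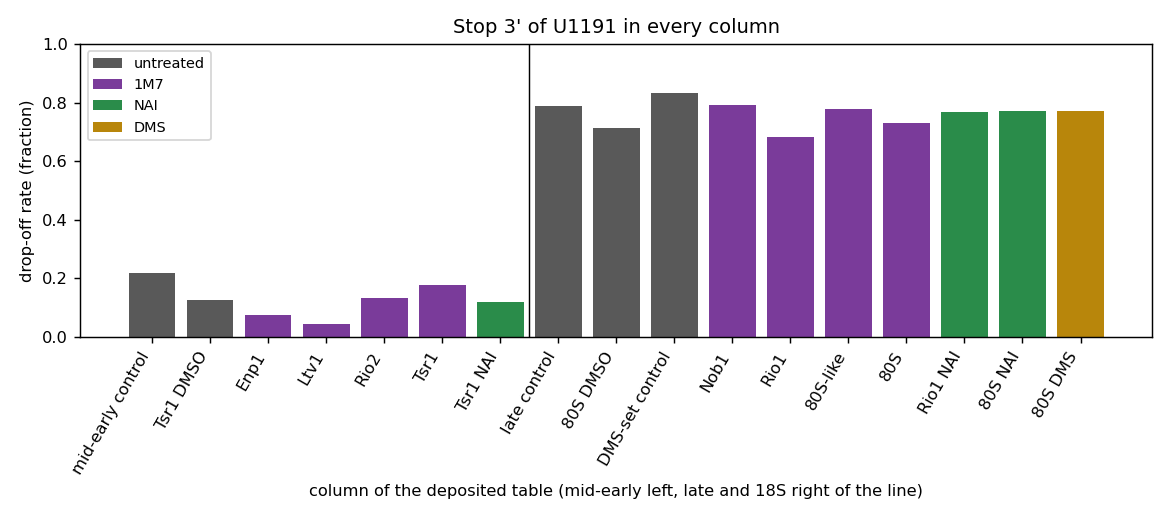
Drop-off rate (fraction, bars from 0) at C1192, the stop of U1191, in each of the 17 columns, coloured by treatment, with mid-early columns left of the line and late columns right of it. The mid-early bars reach at most 0.219 and the late bars start at 0.681, in untreated and treated RNA.

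The rate listed at U1191 itself followed the same order, at 0.102 and 0.0533 in untreated 20S and 0.317, 0.365 and 0.398 in untreated 18S. With 1M7 it was 0.0752 ± 0.0253 (SD, n = 4) mid-early and 0.253 ± 0.0709 (SD, n = 4) late, a limma difference of 1.64 (SE 0.27, adjusted p = 0.0107). Pseudouridine U1187, 4 nucleotides 5' in the same loop, is itself a member. Its listed rate was 0.00712 and 0.00544 in untreated 20S and 0.0241, 0.0327 and 0.0172 in untreated 18S. With 1M7 it was 0.00558 ± 0.000756 (SD, n = 4) mid-early and 0.0267 ± 0.00912 (SD, n = 4) late, a difference of 1.20 (SE 0.18, adjusted p = 0.00663). At its stop G1188 the 1M7 values were far closer, 0.00428 ± 0.000692 and 0.00852 ± 0.00182 (SD, n = 4 each). The first mean is under 0.005, the mean rate asked of a tested stop. G1188 entered the 1M7 fit only through its late columns and is described without that test.

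Unmodified neighbours 5' of U1191 were also higher in 18S and late columns. A1183, A1184, U1185 and U1186 were chosen for description after their values were seen, and at each the mid-early and late 1M7 columns did not overlap. At A1184 the untreated rate averaged 0.0301 ± 0.0127 (SD, n = 2) in 20S and 0.319 ± 0.123 (SD, n = 3) in 18S, and with 1M7 0.0423 ± 0.0236 and 0.237 ± 0.117 (SD, n = 4 each). On the 3' side, A1193 averaged 0.0173 ± 0.00307 (SD, n = 2) in 20S and 0.0246 ± 0.00249 (SD, n = 3) in 18S, without overlap. With 1M7 it averaged 0.0194 ± 0.00292 mid-early and 0.0467 ± 0.0261 late (SD, n = 4 each), where 80S, at 0.0219, lay within the mid-early range. The part that the stop at C1192 itself plays in rates further 5' was not tested. Pseudouridine U1181, at the start of that window, was read at U1182, at 0.0306 and 0.0166 in 20S and 0.0591, 0.0461 and 0.0900 in 18S. Its groups did not overlap, and the difference of 1.15 (SE 0.30) had an adjusted p of 0.190. With 1M7 the U1182 rates overlapped, from 0.00835 (Rio2) to 0.0274 (Enp1) mid-early and 0.0177 (Nob1) to 0.0518 (80S) late.

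**Figure D3:**
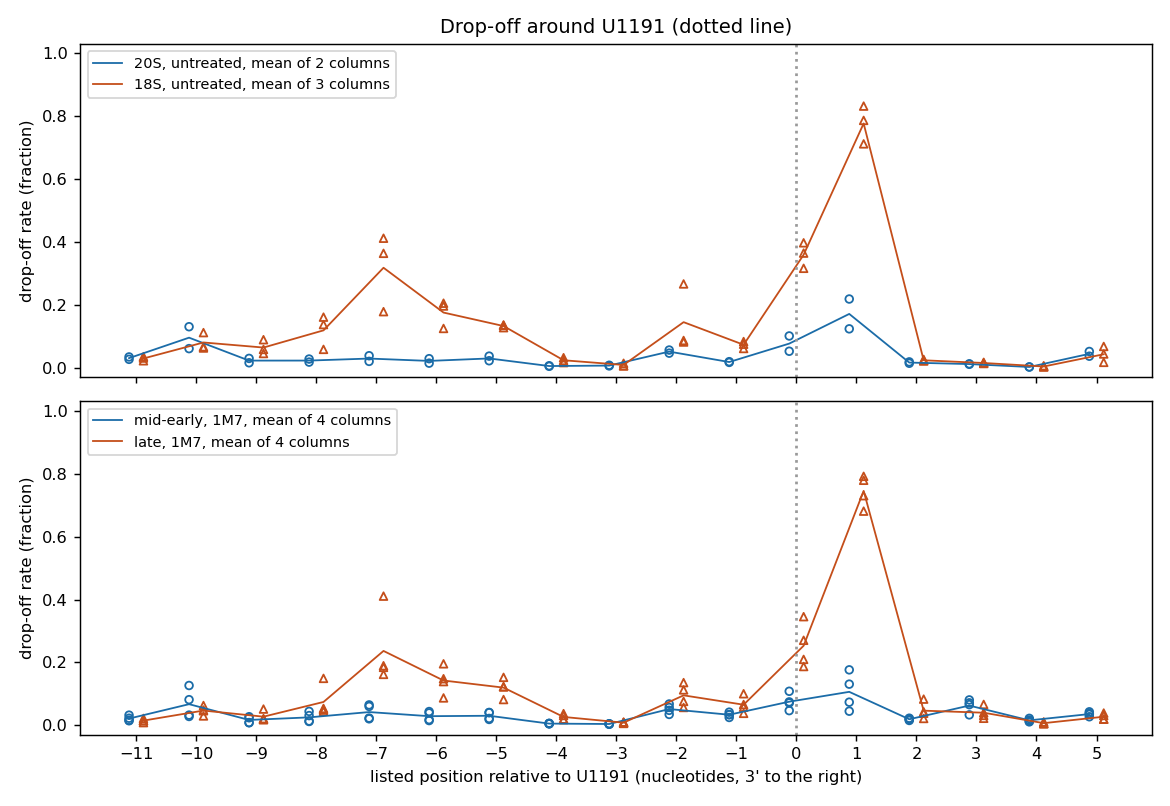
Drop-off rate (fraction) from 11 nucleotides 5' to 5 nucleotides 3' of U1191 (dotted line), untreated (upper panel, 20S and 18S) and with 1M7 (lower panel, mid-early and late). Points are columns and lines their means. The 18S and late lines stand above the others at the stop (0.777 against 0.172 untreated) and around A1184. At A1193, the position 3' of the stop, all 4 means are 0.0467 or less.

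Ribose-methylated nucleotides gave weaker stops, and not all of them did. Over the 5 untreated columns the median of the 18 mean rates was 0.0420, beside 0.0195 for unmodified nucleotides. Of the 18, 13 lay above the median of their own base and 5 in its top 5%. By base, 7 of 8 methylated adenosines, 4 of 5 guanosines, 1 of 2 uridines and 1 of 3 cytidines were above their median. The stop was the highest of the positions from 2 before to 3 after the methylated nucleotide at 5 of 18 (27.8%: A436, A541, U578, G1572 and C1639), beside 16.4% of unmodified nucleotides.

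In at least 1 untreated column, 7 of the 18 stops were in the top 5% of all nucleotides, a limit of 0.0752 to 0.0828 by column. For comparison, 9.82% of unmodified nucleotides met this. C1639, close to the decoding centre in helix 44, was the steadiest, with C1640 at 0.210 and 0.217 in 20S and 0.199, 0.161 and 0.165 in 18S. It stood alone in its window: C1639 itself and C1641 had mean rates of at most 0.0132 in either group. A541, at A542, read 0.162 and 0.0910 in 20S and 0.154, 0.143 and 0.280 in 18S. A436, at A437, read 0.130 and 0.0534 in 20S and 0.0931, 0.0720 and 0.181 in 18S. For A541 and A436 the groups overlapped.

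U578 lies in helix 18, and its stop A579 read 0.0937 and 0.0462 in 20S and 0.115, 0.114 and 0.266 in 18S. Its groups did not overlap, with a limma difference of 1.09 (SE 0.44, adjusted p = 0.473). A619, at A620, went the other way, at 0.0864 and 0.0823 in 20S and 0.0575, 0.0363 and 0.0652 in 18S (-0.61, SE 0.28, adjusted p = 0.495). G1271, at U1272, read 0.0488 and 0.0765 in 20S and 0.0171, 0.0517 and 0.0471 in 18S, and G1428, at G1429, 0.0640 and 0.107 in 20S and 0.0427, 0.0863 and 0.0443 in 18S. At these last stops the 20S and 18S columns overlapped. The other 11 ribose-methylated nucleotides had mean untreated rates at the stop from 0.00673 (A28) to 0.0422 (A100).

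Some methylated nucleotides had a high rate at their own listed position rather than at the stop. A100 was listed at 0.152 and 0.0811 in 20S and 0.209, 0.121 and 0.251 in 18S, and its stop U101 read between 0.0217 and 0.0669. A974 was listed at 0.146, 0.100, 0.160, 0.0953 and 0.201 in the same order, and its stop C975 read at most 0.0294. Over the 18, the median at the listed position was 0.0332, with 12 above the median of their base and 4 in its top 5%.

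**Figure D4:**
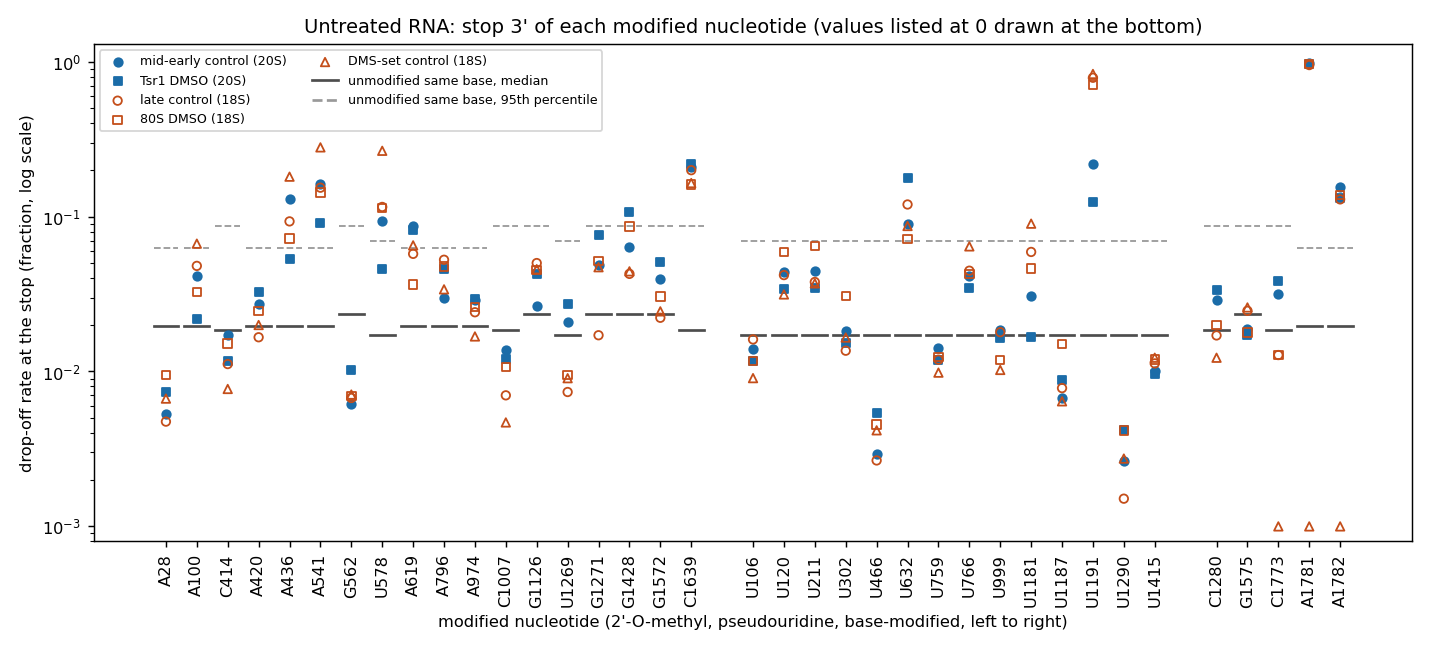
Drop-off rate (fraction, log axis) at the stop of each of the 37 modified nucleotides in the 5 untreated columns, filled for 20S and open for 18S. Solid bars are the median and dashed bars the 95th percentile of unmodified nucleotides of the same base, and values listed at 0 are drawn at the bottom. A1781 and U1191 in 18S stand highest. C1639, A541, A436, U578, U632 and, where it has a value, A1782 follow. The pseudouridines are spread on both sides of the uridine median of 0.0173.

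As a class, pseudouridines had a median near that of unmodified uridines, with single sites spread on both sides. The median over the 14 was 0.0170, beside 0.0173 for unmodified uridines, with 7 above that median. Without U1191 the median was 0.0150, with 6 of 13 above. U632 was the other one with a high stop, at U633, with 0.0892 and 0.177 in 20S and 0.120, 0.0716 and 0.0869 in 18S. The columns overlapped, and U632 itself was listed at 0.117 ± 0.0200 (SD, n = 5), so the position before was as high as the stop. Of the remaining 12, the mean untreated rate at the stop ran from 0.00305 (U1290) to 0.0485 (U1181). U466 and U1290 fell under the filter of a mean rate of 0.005 and were not tested.

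In the fit across all positions of untreated 18S against 20S, 0.489% of 1636 stops were called (0.244% in each direction), and 0 of the 35 members that passed the filter were. This fit holds the zeros of the DMS-set control near the 3' end, also at G1774, A1782 and C1783. Without the last 50 nucleotides, limma called C1192 (adjusted p = 0.00937) and G1270, the stop of U1269 (adjusted p = 0.0241). The number of all stops called there is given in the last section. At an unadjusted p under 0.05 there were 8 members, but all stops were not counted at that threshold, so the 8 cannot be read as an excess. No other tool was run. At 16 of the 35 members all 18S values lay on 1 side of all 20S values, 6 with 18S higher and 10 with 18S lower, beside 28.1% of all stops (8.31% higher and 19.7% lower). The smallest adjusted p among member stops was that of U1269, a ribose-methylated uridine, read at G1270, with 0.0207 and 0.0274 in 20S and 0.00737, 0.00950 and 0.00905 in 18S (-0.87, SE 0.16, adjusted p = 0.0622). At the listed position C1773 passed the threshold, but its 18S mean of 0.00107 is under the filter and it was tested only through its 20S columns, so it too is described without the test. It read 0.0177 and 0.0264 in 20S and 0.00320 in the late control, and is listed at 0 in 80S DMSO and in the DMS-set control. Both of those columns hold zeros among the last 50 nucleotides, 6 in the first and 36 in the second. Dividing each column by its median moved the median of all stops from -0.10 to 0.02 here, and from -0.10 to 0.02 for the 1M7 rates.

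For the 1M7 rates, late against mid-early, 1.47% of 1634 stops were called (7 higher, 0.428%, and 17 lower, 1.04%, in late columns, or 7 and 11 after division by the median). Of the 34 members tested, 1 was called, C1192. Members whose mid-early and late columns did not overlap numbered 6 of 34, beside 9.98% of all stops (2.75% higher and 7.22% lower). C1192 and G1188 were higher in late columns, and A620 (A619), C975 (A974), G1270 (U1269) and G1281 (C1280) were lower. None of the lower ones was called, with limma adjusted p from 0.197 (G1270) to 0.415 (A620). G1188 is in these counts only through its late columns, its mid-early mean of 0.00428 being under the 0.005 filter. Over all 15 columns the stage term called 2.32% of stops and 2 of 35 members, C1192 and G1188 (0.40, SE 0.09, adjusted p = 0.0227).

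Reactivity is the excess of the treated rate over its control, scaled within each column to the average of the 8% of nucleotides that follow the top 2%, so 0 is the control level. It could be compared between stages at only 4 member stops (U29, U633, G1774 and C1783), those with a mean of at least 0.1. None was called, beside 6.15% of the 504 stops tested (2.58% higher and 3.57% lower), and 0 members were at an unadjusted p under 0.05.

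The ribose methyl replaces the hydroxyl that 1M7 and NAI acylate. Over the 8 columns the mean 1M7 reactivity at ribose-methylated stops had a median of -0.375, with 2 of 18 above the control. Unmodified nucleotides had a median of -0.0171, with 45.7% above. By column the median ran from -0.550 (Tsr1) to -0.0897 (Rio1). For the 12 methylated stops with a mean untreated rate under 0.05 the median was -0.270, beside -0.00863 for unmodified ones of the same range. For the 6 at 0.05 or more it was -0.841, beside -0.307. Below the control in all 8 columns were 8 of the 18 (44.4%), beside 15.7% of unmodified nucleotides. The share was much the same for pseudouridines, which keep the hydroxyl, at 6 of 14 (42.9%). The columns of a stage share the same control, so the 8 reactivities of a stop are not independent of each other.

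C1640, the stop of C1639, was lower in every 1M7 column. It read 0.0906, 0.0996, 0.132 and 0.111 mid-early and 0.0566, 0.0749, 0.109 and 0.115 late, all below the 5 untreated values of 0.161 to 0.217. A579, the stop of U578, read 0.0320 to 0.0558 mid-early and 0.0277 to 0.0641 late with 1M7, and its reactivity was -1.78 ± 0.438 (SD, n = 8 columns). A28 and A420 had a mean above the control. A420, at A421, averaged 0.0196 ± 0.381 (SD, n = 8), above the control in 3 of 8 columns. A28 was above it in 7 of 8, with a mean of 0.202 ± 0.272 (SD, n = 8). The untreated rate of A28 was low, 0.00475 to 0.00949 at U29, and with 1M7 it was highest in Rio1, at 0.0292.

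Across the 15 columns of both acylating reagents, with stage and set as terms, 18.9% of 1678 stops differed between treated and untreated, 128 higher (7.63%) and 189 lower (11.3%), or 145 and 113 after division by the column median. The DMS set has no part in this fit. Of the 35 members tested, 6 were called, all lower with reagent: the stops of ribose-methylated C1639 (-0.68, SE 0.21, adjusted p = 0.0369 in limma) and A796 (-0.75, SE 0.24, adjusted p = 0.0382), and of pseudouridines U106, U120, U211 and U1415. Their share of 17.1% was near the background. For U211, at U212, the untreated rates were 0.0443, 0.0347, 0.0378, 0.0646 and 0.0371 and every acylated rate was 0.0287 or less (-0.87, SE 0.19, adjusted p = 0.00505). For U1415, at G1416, they were 0.0101, 0.00961, 0.0113, 0.0119 and 0.0123, and every acylated rate was 0.00897 or less (-0.35, SE 0.08, adjusted p = 0.00736).

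U120, at U121, read 0.0437, 0.0338, 0.0419, 0.0590 and 0.0314 untreated (-0.55, SE 0.18, adjusted p = 0.0413). U106, at C107, read 0.0140, 0.0116, 0.0161, 0.0117 and 0.00906 (-0.50, SE 0.14, adjusted p = 0.0179). A796, at G797, read 0.0296, 0.0457, 0.0526, 0.0474 and 0.0339. At these 3 stops treated and untreated columns overlapped. After division by the column median 3 members were called, 8.57% of those tested. Leaving out single columns of the 15 kept the calls at U212 and G1416. It ended that at C107 without Tsr1 DMSO or 80S DMSO, and that at C1640 without the mid-early control, Tsr1 DMSO, the late control, Ltv1 or Tsr1 NAI. The call at G797 ended in 8 of the 15 cases (adjusted p up to 0.185, without the late control) and that at U121 in 9 (up to 0.171, without 80S DMSO). Over the 14 pseudouridines, the median 1M7 reactivity was -0.171, beside -0.0178 for unmodified uridines, and 6 of 14 (42.9%) were below the control in all 8 columns.

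At the listed position, A100 fell with reagent by 1.34 (SE 0.23, adjusted p = 0.00104 in limma), with an untreated level of 0.163 ± 0.0680 (SD, n = 5 columns). The acylated columns ran from 0.0250 (Tsr1 NAI) to 0.119 (80S) and overlapped the Tsr1 DMSO value. U211 fell there by 0.50 (SE 0.15, adjusted p = 0.0281). C1007, a ribose-methylated cytidine, also passed the threshold there, but it entered the fit only through the acylated columns, its untreated mean being under the 0.005 filter, so it is described without the test. It was listed at 0.00254 to 0.00389 untreated, at 0.00974, 0.0106, 0.0251 and 0.00801 in the mid-early 1M7 columns and at 0.00274 to 0.00682 in the late ones. With NAI it read 0.0420 in Tsr1, 0.0258 in Rio1 and 0.00657 in 80S. No member was called for an interaction of stage and treatment, beside 0.0596% of stops and 0 members at an unadjusted p under 0.05.

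NAI on Rio1 gave the highest median of the 3 NAI columns at ribose-methylated stops. The median NAI reactivity of the 18 was -0.0461 in Tsr1, -0.0362 in 80S and 0.663 in Rio1, where unmodified nucleotides had -0.0502, -0.0189 and -0.0580. In Rio1 NAI, 10 of the 18 reached a reactivity of 0.3, beside 12.3% of unmodified nucleotides. In Tsr1 NAI 5 did, beside 13.0%, and 7 of the 18 rates were above all 5 untreated columns, beside 27.6%. At the 6 stops with a mean untreated rate of 0.05 or more, the Tsr1 NAI median was 0.494, beside -0.287, and the Rio1 NAI median 3.81, beside -0.351. The column is 1 sample, is set against the Tsr1 DMSO control because Rio1 has none of its own, and was the highest of the 17 columns at 13.3% of all stops. At 8 of the 18 ribose-methylated stops it was the highest. The part of that sample or of the borrowed control in these values was not tested. As a plain rate, Rio1 NAI was above all 5 untreated columns at 10 of the 18, beside 28.2% of unmodified nucleotides.

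The rates show its size. A620 (A619) read 0.135 in Tsr1 NAI, 0.407 in Rio1 NAI and 0.0622 in 80S NAI, and 0.0416 in Rio1 with 1M7. U1272 (G1271) read 0.0716, 0.397 and 0.0343 with NAI and 0.0272 in Rio1 with 1M7. A437 (A436) read 0.211, 0.347 and 0.0476, A542 (A541) 0.279, 0.397 and 0.0765, and A579 (U578) 0.0412, 0.221 and 0.0426. At these stops Rio1 NAI was the highest NAI column each time. C1640 (C1639) was no higher there, at 0.149, 0.141 and 0.178, and neither was G1429 (G1428), at 0.0584, 0.0526 and 0.0560. At 16 of the 18 the rate in Rio1 NAI was above that in Rio1 with 1M7, beside 45.5% of unmodified nucleotides.

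**Figure D5:**
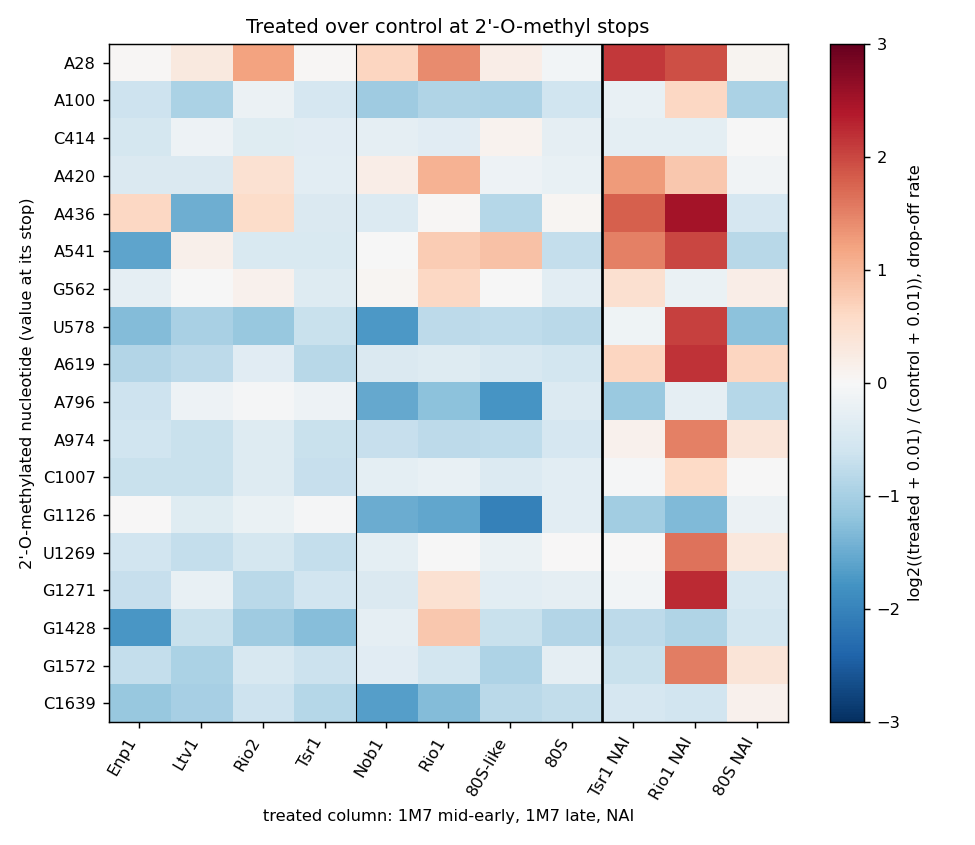
Log2 of (treated + 0.01) over (control + 0.01) drop-off rate at the stops of the 18 ribose-methylated nucleotides (rows) in the 8 1M7 and 3 NAI columns. Blue is below and red above the matched control. The 1M7 columns are mostly blue, while the Rio1 NAI column, a single sample, is red at 12 of 18 stops.

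With DMS, which marks bases and not riboses, members were compared with the control of the same set, 1 column each. Of the 8 modified adenosines with a value, 5 were above the control at the stop, beside 84.7% of unmodified adenines. The median difference of those 8 was 0.00464, beside 0.00925. Of 4 cytidines 3 were above, beside 32.4%, and none of 6 guanosines and none of 16 uridines were, beside 11.7% and 22.1%. Of the 7 ribose-methyl stops in the top 5% of an untreated column, 6 were lower with DMS, among them A542 at 0.111 against 0.280 and A579 at 0.0680 against 0.266. That control was among the columns by which they were picked, so a fall is favoured by the choice. Of unmodified nucleotides with a mean untreated rate of 0.05 or more at the stop, only 25.5% were above the control with DMS. A620 was higher, at 0.0787 against 0.0652. C1192 read 0.770 against 0.833 and was the strongest member stop with a value in that column.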

How the data were processed

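The authors deposited 1 table of average drop-off rates, a fraction per nucleotide for each of 17 groups, made from 41 samples, with cDNA primed by random hexamers per the labels' protocols. Per the submitters' processing notes, Novoalign 2.07 was among the tools. The formula of the rate, the reference and the averaging were not given in the sources used here. All 17 columns were used. The RNA sequence was read from the table.

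Rates were fitted as log2(rate + 0.01) by limma (version 3.58.1, R 4.3.3, trended variance prior) over stops with a mean rate of at least 0.005, with Benjamini-Hochberg adjustment over all stops tested and a threshold of 0.05. This scale understates changes of low rates. Reactivities were fitted as log2(max(reactivity, 0) + 0.1). Reactivities of the 4 mid-early purifications used the mid-early control, and those of the 4 late ones the late control. NAI on Tsr1 and Rio1 was set against Tsr1 DMSO, and on 80S against 80S DMSO. Fits were tested on simulated data. Class medians and counts carry no test. Python 3.11.15, numpy 2.4.6, pandas 2.3.3 and matplotlib 3.10.9 did the rest.

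Values by column are given for base-modified sites, U1191, members in the top 5% of an untreated column and members called. Alternatives were other pseudocounts, no filter, division of columns by their median, linear rates, no trend, the listed position and leaving out each column. The stage term over 15 columns was chosen after seeing the data. Members and lists were chosen with earlier results of these data known. Nothing states that samples of a group were separate cultures, and depth is unknown.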

Additional observations from a re-analysis of the deposited data

Results flagged for a closer look

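Within each set of 4 mid-early or 4 late 1M7 columns, the highest or lowest column was flagged where its gap to the next, divided by the range, passed Dixon's 95% limit for 4 values. Of 74 such sets, 11 were flagged, at 10 of the modified nucleotides, and chance flags about 1 in 20. That is 14.9% of the sets, beside 5.42% of 3522 sets at unmodified stops. In 5 of the 11 (45.5%) it was the Rio2 column that stood highest, beside 18 of 191 (9.42%) at unmodified stops. Rio2 read 0.0251 at U29 (stop of A28; next 0.00869), 0.0413 at A421 (A420; next 0.0198), 0.0657 at A620 (A619; next 0.0459), 0.00815 at G1008 (C1007; next 0.00504) and 0.501 at C1783 (A1782; next 0.166). The first 4 are ribose-methylated.

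At A1782, the stop of A1781, Enp1 was lowest of the mid-early columns at 0.937 (next 0.974) and 80S lowest of the late ones at 0.879 (next 0.967). At A579, the stop of U578, Nob1 was lowest at 0.0277 (next 0.0610). At U1272, the stop of G1271, Rio1 was highest at 0.0272 (next 0.0126). Pseudouridines gave the last pair: Tsr1 was highest at U767 (U766) at 0.0312 (next 0.0246), and 80S at U1182 (U1181) at 0.0518 (next 0.0212).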

How the results depend on the processing

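The late rise at C1192 kept its direction and its call under all 15 alternatives run. The number of members called moved more, given here with the number of all stops called in brackets where it moved. For untreated 18S against 20S (0 members) it was 1 with no trend, 1 at the listed position, 2 without the last 50 nucleotides (15 stops against 8) and 0 to 1 with a column left out (0 to 17). For 1M7 rates (1 member) it was 2 at the listed position, 2 with the stage term over 15 columns (39 against 24), and 1 to 3 with a column left out (13 to 183, with 3 members and 183 stops without 80S). For acylated against untreated (6) it was 3 with columns divided by their median (258 against 317), 3 at the listed position, 2 in the 1M7 set alone (52), 1 in the NAI set alone (57), and 2 to 10 with a column left out (173 to 369). The 2 came without Tsr1 DMSO (200 stops), the 10 without Rio1 NAI (295), and 3 each without the late control (226) or 80S DMSO (173). The listed-position counts include C1773 (untreated) and C1007 (acylated), which passed the filter through 1 group of columns only. The 3 members called for 1M7 rates without 80S include G1188, which passed it through its late columns only. For reactivity and for the interaction it was 0 to 0 (all stops 5 to 121 and 0 to 2).

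The ribose-methyl median of 0.0420 was 0.0345 in the mid-early control alone, 0.0334 in the late control, 0.0345 in 80S DMSO and 0.0332 at the listed position. The pseudouridine median of 0.0170 was 0.0228 in 80S DMSO alone and 0.0250 at the listed position. The 1M7 median of -0.375 was -0.550 in Tsr1, -0.209 in Nob1, -0.0897 in Rio1 and -0.0918 at the listed position. The NAI median over 3 columns, 0.351, turned to -0.0674 at the listed position. The cause of these shifts was not tested. No paired analysis was possible because the deposited columns are means of groups and carry no replicate numbers. Depth is unknown, and the means of 1 to 4 samples hide the spread within a group.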
